A study of Rattus norvegicus with 38 samples.

Results

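The genes described here encode the enzymes that remove superoxide and peroxides: the superoxide dismutases Sod1, Sod2 and Sod3, catalase (Cat), the glutathione peroxidases Gpx1, Gpx2 and Gpx3, the peroxiredoxins Prdx1 and Prdx6, and thioredoxin (Txn1). A gene was measured if a probe set was annotated with its symbol and no other, and the probe set with the highest mean was used. This gave 9 of the 10 genes, among 14217 genes on the array, and each of the 9 had 1 such probe set, so no second probe set was there to compare. The only probe set listed for Prdx1 was also annotated with Prdx1l1, and Prdx1 was therefore not analysed here.

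Lung was taken from 34-week-old female N:NIH rats of 2 lines bred for intrinsic exercise capacity, high (HCR) or low (LCR). Exposure ran on 5 days a week for 12 weeks, to cigarette smoke or, in the sham groups, to room air. Of the HCR rats 7 were sham and 12 smoke, and the LCR rats were divided in the same way. Total RNA from about 25 mg of lung per rat was hybridised to 1 Affymetrix Rat Genome 230 2.0 array. One LCR sham rat, 0445, carries no tags for strain, age and sex. The numbers of the arrays run in blocks by group, so their order and the groups cannot be told apart.

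Superoxide dismutases turn superoxide into hydrogen peroxide and oxygen, Sod1 mainly in the cytosol, Sod2 in mitochondria and Sod3 outside cells. Catalase, glutathione peroxidases and peroxiredoxins then reduce hydrogen peroxide, the glutathione peroxidases with glutathione and most peroxiredoxins with thioredoxin. The lung is exposed to oxidants from inhaled smoke and from activated phagocytes, and it holds much of the body's Sod3 in vessel walls and airways.

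The lung identity of the samples and the exposure labels were checked first. All 6 lung markers were measured, and their summed intensity lay between 38711 and 44160 on the 38 arrays. Cyp1a1, a P450 enzyme induced by smoke, lay between 5.96 and 54.7 on sham arrays and between 2803 and 4881 on smoke arrays. Some pieces of lung carried muscle RNA, in amounts that differed between arrays. The summed intensity of 7 heart muscle markers was 18121 on LCR sham 0442, 12573, 8816, 3662 and 2406 on HCR smoke 0415, 0410, 0414 and 0417, and 3671 on HCR sham 0433, against group medians of 97.5 to 148. HCR sham 0433 also had a summed skeletal muscle level of 10851, against a group median of 88.3, and a summed fat cell level of 792, against 213. The heart muscle sum was also above its group medians, at lower sums, on HCR sham 0432 (1685) and 0438 (670) and LCR sham 0440 (1473) and 0446 (370.5). The same held for LCR smoke 0420 (1042) and 0422 (489) and HCR smoke 0419 (943). On the remaining arrays it was 186.3 or less. The comparisons of the 9 genes between groups, and the correlations among them, were also computed without the 6 arrays with most muscle RNA. The partner genes and marker list correlations were not. The spread of an array, as the interquartile range of its log2 values, was 2.74 to 2.94 on HCR smoke and 2.94 to 3.04 on HCR sham arrays, and 2.79 to 3.01 on LCR smoke and 2.97 to 3.04 on LCR sham arrays. With this spread as a covariate none of the 14 calls of the 9 genes changed, while among all genes the calls after smoke in HCR went from 2513 higher and 4317 lower to 1414 and 1610. The partner genes were not fitted with it.

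With smoke, Sod2 rose about 2.5-fold in HCR and 3.3-fold in LCR, while the other measured enzymes changed by less than 1.5-fold. In HCR, 3 of the 9 genes rose (Sod2, Gpx1 and Txn1), 2 fell (Sod3 and Gpx3) and 4 did not pass. In LCR, 5 rose (Sod2, Cat, Gpx1, Gpx2 and Txn1), the same 2 fell and 2 did not pass. A call is a limma p-value adjusted by Benjamini-Hochberg over all 14217 genes of under 0.05, and each change is a difference of mean log2(intensity + 16), with its standard error. Among all genes, 17.7% were called higher and 30.4% lower after smoke in HCR, and 22.7% higher and 27.9% lower in LCR. With median-centred arrays the split was 3804 higher and 3362 lower in HCR, in place of 2513 and 4317, and 5452 and 2970 in LCR, in place of 3225 and 3968. In HCR the 3 rises and 2 falls are within 2 genes of the shares first given. In LCR 5 of 9 rose, beside 22.7%, and no test of the set was made. The median change of the 9 genes was 0.02 in HCR and 0.23 in LCR, where that of all genes was -0.03 and -0.0046. The plot of intensities by array shows each gene on each of the 38 arrays.

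**Figure D1:**
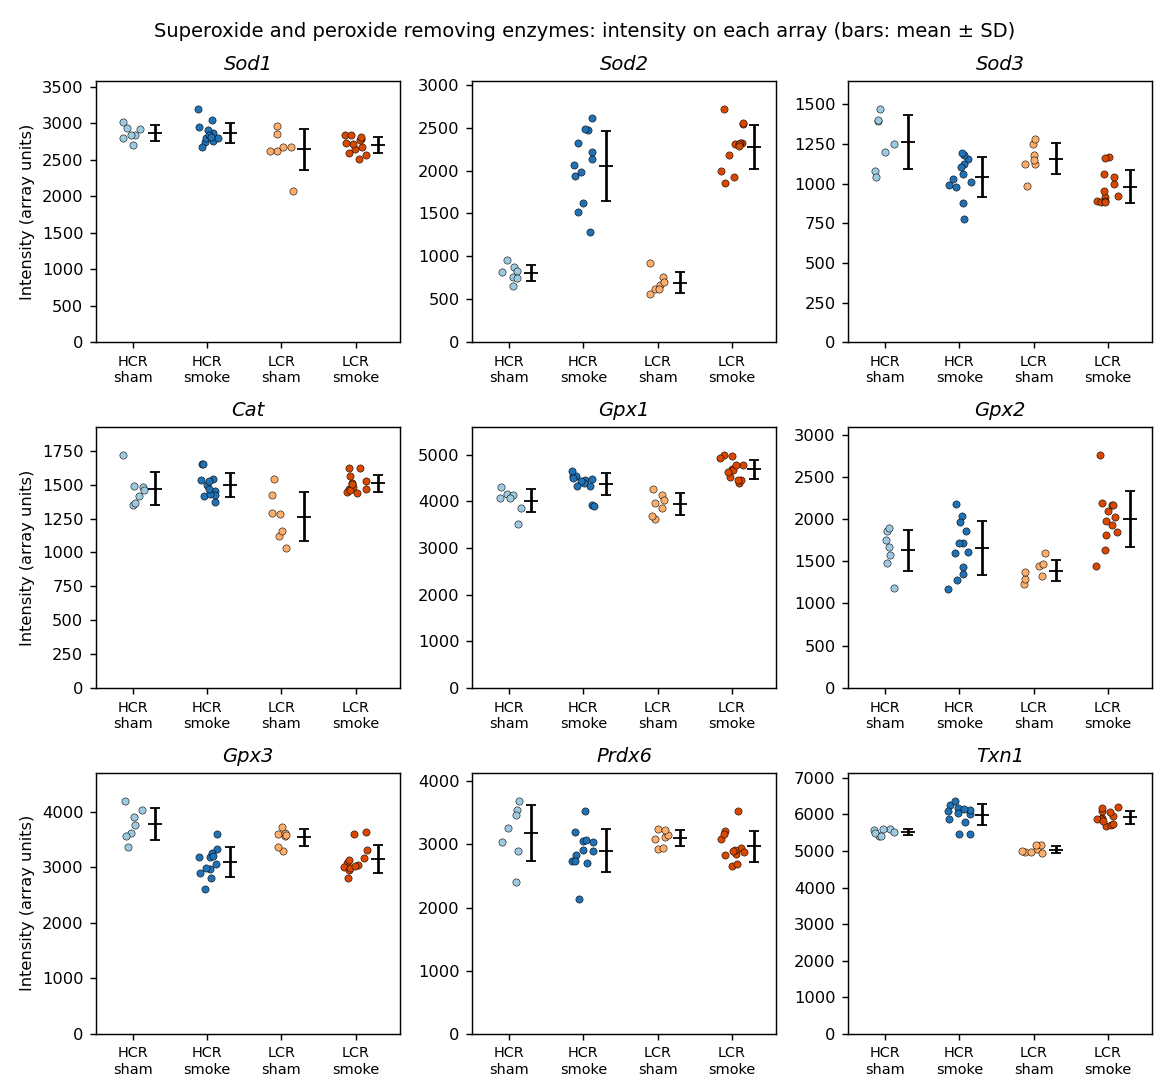
Intensity of the 9 measured genes, 1 panel per gene with its own y axis from 0 (array units). Each point is the array of 1 rat in the groups HCR sham (n = 7), HCR smoke (n = 12), LCR sham (n = 7) and LCR smoke (n = 12), and the bar beside the points is the mean ± SD. Sod2 separates smoke from sham arrays in both lines, and Txn1 is lowest in LCR sham.

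Sod2, the manganese dismutase of mitochondria, had intensities of 651, 751, 761, 815, 828, 876 and 954 on the HCR sham arrays, ordered by size. After smoke the 12 HCR arrays had a lowest value of 1279, a median of 2099 and a highest of 2609. In LCR the sham arrays read 566, 616, 616, 664, 705, 755 and 926, and the smoke arrays ranged from 1857 through a median of 2304 to 2717. No smoke array of either line reached down to the highest sham array of its line, so the groups did not overlap in either line. The share of all genes whose groups do not overlap was not computed, here or for the genes below. The rise was 1.31 ± 0.11 log2 in HCR (adjusted p = 4.92e-11) and 1.70 ± 0.11 in LCR (adjusted p = 2.47e-14), and it ranked 42 of 14217 by size of change in each line. The lowest HCR smoke values belonged to 0419 (1279), 0416 (1517) and 0409 (1622), below all 12 LCR smoke arrays. The larger rise in LCR did not pass as a difference between lines (0.39 ± 0.15, adjusted p = 0.156).

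The promoter of Sod2 is shown because this gene changed most. It is the RefSeq sequence at chr1:50050119-50050418 (minus strand) of build GRCr8, from 250 bases before to 50 bases after the start site. Capitals mark a match to the core of the antioxidant response element, TGACNNNGC, the motif bound by NRF2, which was searched on both strands.
Sod2: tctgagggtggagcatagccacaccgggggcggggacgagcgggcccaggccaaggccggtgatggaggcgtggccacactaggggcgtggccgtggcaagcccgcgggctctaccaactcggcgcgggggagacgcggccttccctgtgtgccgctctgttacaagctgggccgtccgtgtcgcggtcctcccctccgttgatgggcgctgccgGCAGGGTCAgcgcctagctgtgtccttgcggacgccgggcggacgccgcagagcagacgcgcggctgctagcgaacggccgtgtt
The match, GCAGGGTCA, lies on the opposite strand and begins 35 bases before the start site. Of the 33469 RefSeq promoters of this length, 12.1% held the motif. Sequences were found for 8 of the 10 listed genes, all but Sod3 and Prdx6, and 3 of them held a match (Sod2, Gpx2 and Prdx1). A match describes letters in this window only.

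Sod1, the copper and zinc dismutase of the cytosol, did not pass in any of the 5 comparisons. HCR sham arrays had a median of 2842 (2700 to 3022) and HCR smoke arrays 2825 (2680 to 3194). In LCR the medians were 2668 under sham (2076 to 2959) and 2721 under smoke (2506 to 2838). The smoke change was -0.0006 ± 0.04 in HCR, with a 95% interval of -0.09 to 0.09, and 0.04 ± 0.04 in LCR, with an interval of -0.04 to 0.13. Neither passed (adjusted p = 0.992 and adjusted p = 0.419), and the intervals exclude changes as large as those of Sod2. With arrays centred on their medians, the LCR change was called (0.10, adjusted p = 0.0406). All 12 LCR smoke arrays were below the mean of the HCR smoke arrays, but this line difference did not pass either (-0.08 ± 0.04, adjusted p = 0.162).

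Sod3, the secreted dismutase that binds to matrix, fell in both lines. On the HCR sham arrays it read 1041, 1077, 1200, 1251, 1398, 1404 and 1471, and on the HCR smoke arrays it ranged from 774 through a median of 1044 to 1195. The LCR sham values were 984, 1121, 1125, 1149, 1183, 1253 and 1283, and the smoke arrays ran from 882 through 936 to 1166. The groups overlapped: 6 of 12 smoke arrays in HCR and 7 of 12 in LCR lay below every sham array of their line. Sod3 fell by 0.27 ± 0.08 in HCR (adjusted p = 0.00343) and by 0.24 ± 0.08 in LCR (adjusted p = 0.00974). In bulk lung, fewer cells of a type and less RNA per cell cannot be told apart. The line differences of Sod3 did not pass under sham (-0.12 ± 0.09) or under smoke (-0.08 ± 0.07).

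Copper reaches Sod1 through the chaperone Ccs and Sod3 through the secretory pathway. Ccs fell by 0.30 ± 0.05 in HCR and by 0.20 ± 0.05 in LCR. Of the other copper genes, Atox1 passed in LCR at 0.13 ± 0.05 and had -0.03 ± 0.05 in HCR, and Atp7a passed in neither line.

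Cat, the peroxisomal enzyme that splits hydrogen peroxide into water and oxygen, rose after smoke in LCR and did not pass in HCR. The LCR sham arrays read 1031, 1122, 1160, 1285, 1291, 1425 and 1542, and the LCR smoke arrays ranged from 1441 through a median of 1496 to 1626. All 12 smoke arrays were above the sham mean and 3 were above every sham array. In HCR the sham values were 1351, 1366, 1417, 1462, 1486, 1493 and 1721, and the smoke values 1375 to 1652 with a median of 1484, within the sham range. The rise in LCR was 0.26 ± 0.05 (adjusted p = 9.52e-05), and the HCR change was 0.03 ± 0.05 with a 95% interval of -0.08 to 0.14 (adjusted p = 0.688). The difference of these changes between lines, 0.24 ± 0.08, did not pass (adjusted p = 0.0835). It passed without HCR sham 0432 (0.25, adjusted p = 0.046) or without LCR sham 0446 (0.29, adjusted p = 0.0335).

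Of the import machinery that brings catalase into peroxisomes, Pex5 and Pex14 were the 2 genes listed, and 30.4% of all genes were called lower in HCR and 27.9% in LCR. Pex5, the import receptor, fell by 0.32 ± 0.05 in HCR and by 0.24 ± 0.05 in LCR. Pex14, which docks Pex5 at the membrane, fell by 0.29 ± 0.05 in HCR and had -0.10 ± 0.05 in LCR (adjusted p = 0.0642).

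Gpx1, the cytosolic glutathione peroxidase present in most cells, rose in both lines. Its HCR sham values were 3519, 3860, 4065, 4077, 4139, 4147 and 4296, and the smoke arrays ranged from 3890 through a median of 4442 to 4639. In LCR the sham values were 3624, 3684, 3854, 3968, 4032, 4135 and 4268, and the smoke values 4384 to 4994 with a median of 4672. All 12 LCR smoke arrays lay above every LCR sham array. In HCR 10 of 12 did so, and 0409 (3890) and 0419 (3919) were below the sham mean. Gpx1 rose by 0.12 ± 0.04 in HCR (adjusted p = 0.00859) and by 0.25 ± 0.04 in LCR (adjusted p = 1.56e-06). The HCR call ended with quantile normalization (0.08, adjusted p = 0.055). Under smoke Gpx1 was higher in LCR than in HCR by 0.10 ± 0.03, which did not pass (adjusted p = 0.0549), although 12 of 12 LCR arrays were above the HCR mean. This line difference passed with the groups compared alone in the fit (adjusted p = 0.0488), with array weights (0.10, adjusted p = 0.0276), and without HCR sham 0439 (adjusted p = 0.0377), HCR smoke 0418 (adjusted p = 0.0421), LCR smoke 0420 (adjusted p = 0.0364) or LCR smoke 0421 (adjusted p = 0.0434).

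Gpx2, the glutathione peroxidase of epithelia, rose in LCR and did not pass in HCR, and the difference between these changes did not pass. The LCR sham arrays read 1234, 1289, 1326, 1376, 1439, 1463 and 1602, and the smoke arrays ranged from 1445 through a median of 1999 to 2761. Of the 12 smoke arrays, 11 lay above every sham array, and 0422 (1445) did not. In HCR the sham values were 1187, 1485, 1571, 1664, 1753, 1854 and 1889, and the smoke values spread more widely on both sides, from 1169 to 2179 with a median of 1658. The change was 0.51 ± 0.11 in LCR (adjusted p = 0.000189) and 0.02 ± 0.11 in HCR (adjusted p = 0.92), with a 95% interval of -0.20 to 0.23 in HCR. The interaction was 0.50 ± 0.15 (adjusted p = 0.0738).

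The Gpx2 comparisons between lines depended on single arrays. Without the 6 arrays with most muscle RNA, the interaction passed at 0.69 (adjusted p = 0.0416) and the line difference under smoke at 0.39 (adjusted p = 0.017), where all arrays gave 0.28 ± 0.09 (adjusted p = 0.063). HCR smoke 0415 and 0410, with heart muscle RNA, had the highest Gpx2 of their group (2179 and 2041), and HCR sham 0433, with skeletal muscle and fat cell RNA, had the lowest of its group (1187). The others of the 6 lay inside their groups, HCR smoke 0414 and 0417 at 1712 and 1711 and LCR sham 0442 at 1463. HCR smoke 0415 and 0410 also had the highest mean log2 levels of airway markers in their group (11.002 and 11.145). The interaction also passed without HCR sham 0433 alone (0.57, adjusted p = 0.0424) and without LCR smoke 0422 (0.54, adjusted p = 0.0432), and with array weights (0.55, adjusted p = 0.0116). The line difference under smoke passed without HCR smoke 0410 (0.31, adjusted p = 0.0367), 0413 (0.30, adjusted p = 0.0498) or 0415 (0.32, adjusted p = 0.0372), without LCR smoke 0422 (0.32, adjusted p = 0.0252), and with array weights (0.31, adjusted p = 0.00842). The part of muscle RNA or of airway tissue in these values was not tested further.

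The Gpx2 promoter is printed because it holds one of the 3 motif matches, GCTAAGTCA, again on the opposite strand and beginning 13 bases before the start site. It lies at chr6:101229984-101230283 (minus strand) in GRCr8 (RefSeq), with the match in capitals.
Gpx2: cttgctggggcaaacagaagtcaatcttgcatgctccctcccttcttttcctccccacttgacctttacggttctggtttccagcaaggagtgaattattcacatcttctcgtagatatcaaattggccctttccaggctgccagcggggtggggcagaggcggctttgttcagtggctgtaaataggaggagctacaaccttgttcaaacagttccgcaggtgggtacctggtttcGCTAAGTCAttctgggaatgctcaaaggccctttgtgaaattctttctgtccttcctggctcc
Gpx1, Gpx3, Cat, Sod1 and Txn1 had no match in their windows, so genes with and without a match were among those that rose.

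Gpx3, the secreted glutathione peroxidase of plasma and extracellular fluid, fell in both lines. The HCR sham values were 3358, 3573, 3611, 3764, 3908, 4032 and 4202, and the smoke values ranged from 2608 through a median of 3128 to 3604. In LCR the sham values were 3298, 3363, 3569, 3584, 3604, 3615 and 3730, and the smoke values ran from 2802 through 3057 to 3635. In HCR 11 of 12 smoke arrays were below every sham array, with 0409 (3604) inside the sham range, and in LCR 9 of 12 were. Gpx3 fell by 0.29 ± 0.05 in HCR (adjusted p = 2.5e-05) and by 0.17 ± 0.05 in LCR (adjusted p = 0.00553). Centring each array on its median ended the LCR call (-0.11, adjusted p = 0.0824). Sod3 and Gpx3, both secreted, thus fell in each line, and the interaction passed for neither (0.04 ± 0.11 and 0.12 ± 0.07).

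None of the other 4 glutathione peroxidases measured was called higher in either line, by limma. Among all genes 17.7% were called higher and 30.4% lower in HCR, and 22.7% and 27.9% in LCR. Gpx7 fell by 0.40 ± 0.07 in HCR and by 0.32 ± 0.07 in LCR. Gpx4, which reduces lipid peroxides in membranes, fell by 0.17 ± 0.05 and by 0.21 ± 0.05. Gpx8, an enzyme of the endoplasmic reticulum, fell by 0.22 ± 0.07 in LCR and had -0.12 ± 0.07 in HCR. Gpx6 passed in neither line (0.01 ± 0.02 and 0.03 ± 0.02).

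Prdx6, a peroxiredoxin that uses glutathione and also has phospholipase activity, did not pass in either line. HCR sham values were 2411, 2894, 3032, 3267, 3463, 3545 and 3695, and HCR smoke values ranged from 2129 through a median of 2903 to 3532. LCR sham arrays lay close together, at 2933, 2943, 3084, 3111, 3151, 3231 and 3250, and LCR smoke arrays ran from 2657 through 2907 to 3531. The change was -0.13 ± 0.07 in HCR (adjusted p = 0.125, 95% interval -0.27 to 0.01) and -0.06 ± 0.07 in LCR (adjusted p = 0.456, interval -0.21 to 0.08). The HCR change was called as a fall without HCR sham 0432 (-0.19, adjusted p = 0.0163), with array weights (-0.20, adjusted p = 0.0048), with the Gapdh (-0.23, adjusted p = 0.00341) or Actb (-0.22, adjusted p = 0.00531) measure of RNA degradation as a covariate, and without the 6 arrays with most muscle RNA (-0.22, adjusted p = 0.0262). HCR sham 0432, the lowest sham array, had a summed heart muscle level of 1685 against a group median of 124 and a summed fat cell level of 354 against 213, and the part of these in the result was not tested. The degradation measure, the 3' minus 5' log2 difference of control probe sets, reached 1.20 for Gapdh and 2.06 for Actb in HCR sham, against group highs of 0.39 and 0.86 in HCR smoke. Of the other peroxiredoxins, Prdx5, of mitochondria and peroxisomes, rose by 0.64 ± 0.10 in HCR and 1.06 ± 0.10 in LCR, a gene singled out after its values were seen. Prdx2 and Prdx4 rose in LCR (0.14 ± 0.04 and 0.18 ± 0.04), and Prdx3 passed in neither line.

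Txn1, the small protein that passes electrons to peroxiredoxins, had the tightest values and separated the lines under sham. The HCR sham arrays read 5413, 5420, 5485, 5508, 5582, 5596 and 5605, and the LCR sham arrays 4934, 4960, 4961, 5008, 5058, 5154 and 5162. Every LCR sham array was below every HCR sham array, and how many of all genes did so was not counted. Its coefficient of variation was 1.47% in HCR sham and 1.86% in LCR sham, against 12.1% and 17.4% for Sod2 in the same groups. After smoke the HCR arrays ranged from 5462 through a median of 6065 to 6377 and the LCR arrays from 5684 through 5882 to 6206. In LCR all 12 smoke arrays lay above every sham array, and in HCR 10 of 12 did, the others being 0419 (5462) and 0410 (5468). Txn1 rose by 0.12 ± 0.03 in HCR (adjusted p = 0.000313) and by 0.23 ± 0.03 in LCR (adjusted p = 2.85e-09). The LCR minus HCR difference was -0.13 ± 0.03 under sham (adjusted p = 0.00588), and under smoke it was -0.01 ± 0.02 with a 95% interval of -0.06 to 0.03 (adjusted p = 0.723). The interaction was 0.12 ± 0.04 and did not pass (adjusted p = 0.0699). It passed with array weights (0.10, adjusted p = 0.0459) and without HCR smoke 0418 (0.13, adjusted p = 0.0463).

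The Txn1 promoter, at chr5:77519636-77519935 (minus strand) in GRCr8 (RefSeq), is given as that of a gene that rose in both lines with no motif match in the window.
Txn1: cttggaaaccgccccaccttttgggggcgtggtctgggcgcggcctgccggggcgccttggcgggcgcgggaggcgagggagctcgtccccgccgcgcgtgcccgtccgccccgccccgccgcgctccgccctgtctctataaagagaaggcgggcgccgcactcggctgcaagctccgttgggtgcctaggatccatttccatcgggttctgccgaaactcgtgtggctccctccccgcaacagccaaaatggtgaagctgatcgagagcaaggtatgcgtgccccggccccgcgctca

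Between lines, limma called 2 of the 9 genes under sham and 0 under smoke. Under sham, Txn1 and Cat were lower in LCR and none was higher, that is 2 of 9, where 2.34% of all genes were called lower and 1.39% higher in LCR. The difference for Cat was -0.22 ± 0.06 (adjusted p = 0.0276), with 5 of 7 LCR arrays below every HCR sham array. The Cat call ended with the 2 sham groups alone in the fit, where the difference was the same (-0.22, adjusted p = 0.192), with array weights (-0.16, adjusted p = 0.0957) and without the 6 arrays with most muscle RNA (-0.17, adjusted p = 0.137). It also ended without HCR sham 0434, again with the same difference (-0.22, adjusted p = 0.0508), or 0438 (-0.18, adjusted p = 0.0736), and without LCR sham 0441 (-0.20, adjusted p = 0.0758), 0442 (-0.18, adjusted p = 0.0855) or 0443 (-0.20, adjusted p = 0.0647). Each of the 9 estimates was below 0 under sham, from -0.22 to -0.03, while 42.5% of all genes were above 0. Under smoke limma called 0 of the 9, with 3 at an unadjusted p under 0.05 (Sod1, Gpx1 and Gpx2), where 4.61% of all genes were called higher and 1.7% lower in LCR. Of all 14217 genes, 3445 had an unadjusted limma p under 0.05 in this comparison.

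The smoke change was more positive in LCR than in HCR for each of the 9 estimates, and none of these interactions passed. They ranged from 0.04 (Sod1 and Sod3) to 0.50 (Gpx2), with a median of 0.12, where 57.8% of all genes were above 0 and their median was 0.02. By limma 0 of 9 passed and 5 had an unadjusted p under 0.05 (Sod2, Cat, Gpx1, Gpx2 and Txn1). Of all 14217 genes, 2657 had an unadjusted limma p under 0.05. Among all genes 1.52% were called with a more positive change in LCR and 0.352% with a more negative one. The interaction and the sham comparison use the same sham arrays, so their signs are not independent.

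**Figure D2:**
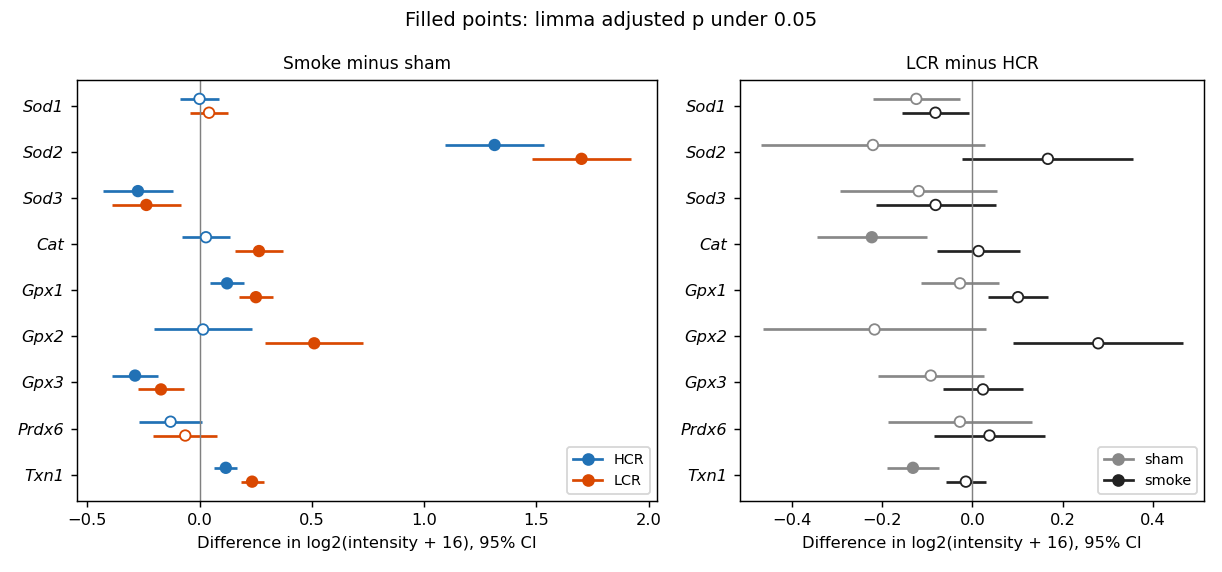
Differences in mean log2(intensity + 16) with 95% confidence intervals for the 9 genes: smoke minus sham in each line (left) and LCR minus HCR under each exposure (right). Filled points passed at a limma adjusted p under 0.05 over all 14217 genes. Sod2 stands alone at 1.31 and 1.70 on the left, and on the right Cat and Txn1 are filled under sham and no gene is filled under smoke.

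Several genes that recycle or supply the reducing partners of these enzymes rose by more than 1 log2 unit. Of 38 partner genes listed, 37 were measured (all but Gpx5). In HCR 11 rose, 11 fell and 15 did not pass, and in LCR 17 rose, 7 fell and 13 did not pass. The share that rose, 11 and 17 of 37, stands beside 17.7% and 22.7% of all genes. The share that fell, 11 and 7 of 37, stands beside 30.4% and 27.9%. The median change was 0.01 and 0.09, beside -0.03 and -0.0046 for all genes. Between lines limma called 0 of 37 under sham (4 at an unadjusted p under 0.05), 2 higher in LCR under smoke (Prdx2 and Sephs2) and 0 interactions (11 at an unadjusted p under 0.05). Of all genes, 1.39% were called higher and 2.34% lower in LCR under sham, and 4.61% and 1.7% under smoke. For the interaction these shares were 1.52% and 0.352%. An unadjusted limma p under 0.05 was found for 2478 of 14217 genes under sham and for 2657 in the interaction.

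RNA of the 4 genes listed for glutathione supply was called higher in each line, where 17.7% of all genes were called higher in HCR and 22.7% in LCR. Glutathione itself was not measured. Slc7a11, which imports cystine, rose by 2.36 ± 0.43 in HCR and 2.44 ± 0.43 in LCR. The subunits of the rate-limiting enzyme of glutathione synthesis followed, Gclm at 1.43 ± 0.25 and 1.41 ± 0.25 and Gclc at 1.27 ± 0.17 and 1.11 ± 0.17. Gss, which completes glutathione, rose by 0.19 ± 0.07 and 0.27 ± 0.07.

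Of 11 genes of regeneration and thiol repair, 4 rose and 3 fell in HCR, and 5 rose and 1 fell in LCR. Srxn1, sulfiredoxin, which restores overoxidised peroxiredoxins, rose by 1.87 ± 0.27 in HCR and 2.05 ± 0.27 in LCR. Gsr, the reductase that returns oxidised glutathione to its reduced form, rose by 0.35 ± 0.10 and 0.45 ± 0.10. The 6 measured partner genes of the thioredoxin system were counted apart from these 11. Of them 2 rose and 3 fell in HCR, and 3 rose and 1 fell in LCR. Txnrd1, the cytosolic reductase of thioredoxin, rose by 1.10 ± 0.14 and 1.22 ± 0.14, about 1 log2 unit, where Txn1 itself rose by 0.12 and 0.23. Of the mitochondrial pair, Txn2 fell by 0.11 ± 0.04 and Txnrd2 by 0.15 ± 0.06 in HCR, and neither passed in LCR. Txnip, which binds and inhibits thioredoxin, fell by 0.43 ± 0.08 in HCR and 0.28 ± 0.08 in LCR. Sesn1, a sestrin induced by p53, is one of the 11 genes of regeneration and thiol repair. It fell by 0.55 ± 0.09 and 0.50 ± 0.09, the largest fall among the measured partner genes in each line. Of the 3 selenium supply genes, Sephs2, which makes the selenium donor for selenoproteins such as Gpx1, rose in LCR (0.19 ± 0.04), and Selenop and Secisbp2 passed in neither line.

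**Figure D3:**
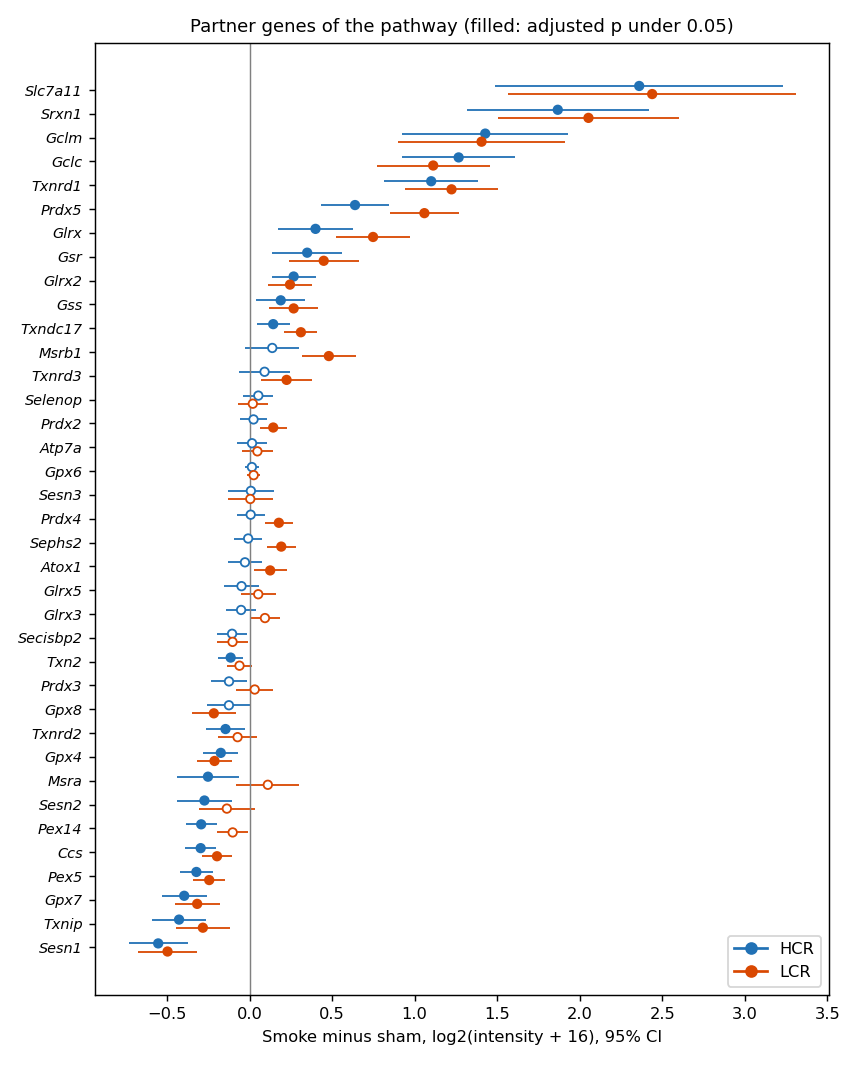
Smoke minus sham in log2(intensity + 16) with 95% confidence intervals for the 37 measured partner genes, ordered by the HCR change, with HCR in blue and LCR in orange. Filled points passed at a limma adjusted p under 0.05. The largest changes are those of Slc7a11 and Srxn1 at the top, and Sesn1 is at the bottom in both lines.

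Between rats of one group the enzymes did not vary as a block. Over the 38 arrays, after each group's mean was subtracted, the 36 pairwise Pearson correlations of the 9 genes lay between -0.41 (Gpx1 with Gpx3) and 0.58 (Sod2 with Gpx1). Sod2 and Txn1 had r = 0.43, and Gpx2 and Prdx6 r = 0.47. Without the 6 arrays with most muscle RNA these were -0.43, 0.58, 0.56 and 0.32. The arrays share their normalization, and these values are a description.

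Among the 5 genes called in both lines, Gpx1 had the closest neighbours over the 38 arrays by the same measure: Smpdl3a (0.88), Capg (0.87) and Plet1 (0.86). For Gpx3 they were Cav1 (0.82), Lsm14a (0.74) and Mettl7a (0.73), and for Sod2 Ifngr2 (0.75), Ctsk (0.75) and Slc26a4 (0.74). Those of Sod3 were Rnase4 (0.71), Pkhd1l1 (0.70) and Pcolce (0.68), and those of Txn1 were Lpo, Reep3 (0.64 each) and Ocln (0.61).

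The summed levels of macrophage and neutrophil markers were higher on smoke arrays, though not each marker was. The summed intensity of the 4 measured macrophage markers (of 6 listed; Cd68, Mrc1, Gpnmb and C1qb) was 2672 to 4321 on HCR sham and 4151 to 8652 on HCR smoke arrays, and 2160 to 3958 on LCR sham and 6668 to 9152 on LCR smoke arrays. The sum of 5 neutrophil markers was 355 to 3883 against 1987 to 9122 in HCR, and 506 to 1295 against 4877 to 8174 in LCR. Most of the neutrophil sum came from S100a9, with medians of 755 and 4132 in HCR sham and smoke and 569 and 4174 in LCR. Csf3r, a neutrophil receptor, had medians of 43.2 and 42.5 in HCR and 48.1 and 47.2 in LCR. Gpnmb made up most of the macrophage sum, with medians of 2510 and 4755 in HCR and 1787 and 5619 in LCR. Mrc1 had 757 and 775 in HCR and 534 and 886 in LCR. Medians of Cd68 were 416 and 933 in HCR and 345 and 1113 in LCR, and those of C1qb 194 and 427 in HCR and 141 and 395 in LCR. The lowest value of a single macrophage marker was 97.7 (C1qb in LCR sham), and no marker was at 0. HCR smoke 0419 and 0409, the lowest smoke arrays for Gpx1, were also those with the lowest macrophage marker means in the plot of markers. The part of cell numbers in the changes of Sod2 and Gpx1 was not tested.

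Within groups, 81 correlations of the 9 genes with the mean log2 level of 9 marker lists were computed over the 38 arrays. By Pearson r, 9 passed after adjustment. Other genes were not tested against the lists, so the share of all genes that follow a list as closely is not known. The arrays also share their normalization. Gpx1 followed the macrophage list most closely, with Pearson r = 0.868 and Spearman rho = 0.864. For both, permutation of arrays within groups gave p = 1e-05, the smallest that 100000 permutations can give, and adjusted p = 0.00041. Without the 2 arrays farthest from the median of the list r was 0.845. It held in each group, at 0.878 in HCR sham, 0.880 in HCR smoke, 0.823 in LCR sham and 0.891 in LCR smoke. Sod2 had r = 0.635 and rho = 0.548 with the macrophage list (permutation test, adjusted p = 0.00041 and 0.022) and r = 0.647 and rho = 0.690 with the neutrophil list (permutation test, adjusted p = 0.00054 and 0.00041). Without the 2 farthest arrays these r were 0.488 and 0.700. In LCR smoke the neutrophil r of Sod2 was 0.381, and in HCR smoke it was 0.799. Gpx2 had r = 0.536 and rho = 0.497 with airway club and ciliated cell markers (permutation test, adjusted p = 0.033 and 0.036), and r = 0.468 without HCR smoke 0410 and 0416. Sod1 correlated with smooth muscle markers at r = 0.50 and rho = 0.484 (permutation test, adjusted p = 0.033 and 0.036), at 0.857 in HCR smoke and 0.070 in LCR smoke. The r of Sod1 was 0.390 without HCR smoke 0415 and LCR sham 0442, which held heart muscle RNA. The other 4 that passed by r were Sod1 with airway markers (0.412), Gpx2 with smooth muscle (0.496), and Gpx3 with lung (0.459) and fat cell markers (-0.464), each with an adjusted p = 0.033 by permutation. By rho the permutation adjusted p of these 4 was 0.036, 0.036, 0.073 and 0.034, so Gpx3 with lung did not pass. Without the 2 farthest arrays of each list their r was 0.346, 0.434, 0.382 and -0.338. For Gpx3 it was -0.162 with lung markers in LCR smoke and -0.103 with fat cell markers in LCR sham. The fat cell markers Adipoq, Plin1, Cidec and Lep had group medians of at most 15.2. Sod1 also passed by rho, and not by r, with heart muscle (rho = 0.447, r = 0.451) and skeletal muscle markers (rho = 0.403, r = 0.224). The permutation adjusted p was 0.044 and 0.036 for rho, and 0.18 and 0.2 for r.

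**Figure D4:**
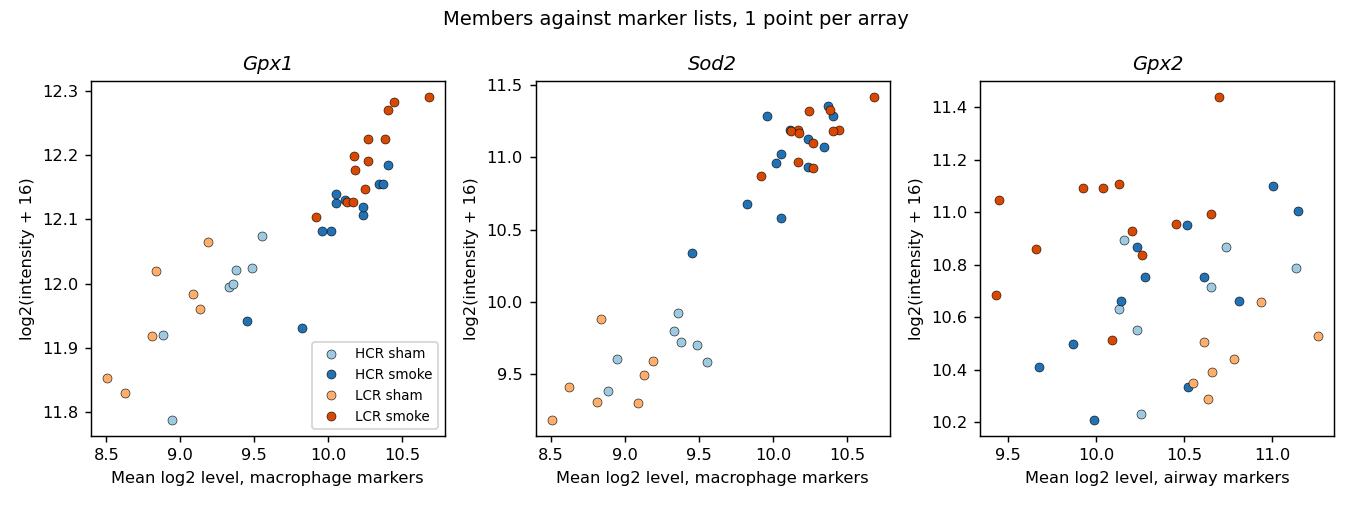
Levels of Gpx1 and Sod2 against macrophage markers and of Gpx2 against airway markers, 1 point per array, coloured by group. The y axis is log2(intensity + 16) of the gene and the x axis the mean of the same measure over the markers. Gpx1 follows the macrophage markers within every group, with r between 0.823 and 0.891, and Gpx2 is higher in LCR smoke than in LCR sham at lower airway marker levels.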

How the data were processed

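Lung RNA of 38 rats was measured on Affymetrix arrays, 1 per rat. The authors deposited 1 table of 31099 probe sets in linear intensity, with a range of 2.09 to 11558. How they summarised and normalized it was not given in the sources used here. Groups and array numbers were taken from the titles. Nothing says that the rats were housed or exposed separately, so p-values measure the spread between these arrays. The number of arrays limits the precision.

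Of the probe sets, 20826 had 1 gene symbol, 436 several and 9780 none, and 57 were controls. Values were taken as log2(intensity + 16), which understates changes of low genes, with no further normalization. The 4 group means were fitted over all 14217 genes in limma 3.58.1 (R 4.3.3, lmFit and eBayes, two-sided, 34 residual degrees of freedom), with Benjamini-Hochberg adjustment over all genes for each of 5 contrasts. The code was tested on simulated data. Correlations with marker lists were tested by permutation (two-sided) within groups. Python 3.11.15, NumPy 2.4.6, pandas 2.3.3 and matplotlib 3.10.9 were used.

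The members, the partner and marker lists and the alternatives were chosen with earlier results of these data known. Named genes were all members, the 5 largest passing partner genes per direction and smoke comparison, further partners chosen by role after their values were seen, the 3 closest neighbours of members called in both lines, and Cyp1a1. As alternatives, arrays were median-centred or quantile normalized, the pseudocount was 1, or a minimum mean intensity of 50 was set. Others were the mean of probe sets, all probe sets, the groups compared alone, array weights, a robust variance with an intensity trend, 3 covariates, the 6 arrays with most muscle RNA left out together and each array left out.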

Additional observations from a re-analysis of the deposited data

Results flagged for a closer look

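A pair of values stood apart from the other arrays of their sham group. Sod1 on LCR sham 0441 had an intensity of 2076, where the next lowest array read 2620, and the gap was 0.656 of the group's range on the log2 scale. Without this array the line difference of Sod1 under sham was -0.07 in place of -0.12, and its change after smoke in LCR was -0.01 in place of 0.04, neither of them called. Cat on HCR sham 0438 had 1721, where the next highest read 1493, and the gap was 0.587 of the range. Without it, the lower Cat level of LCR sham no longer passed (limma adjusted p = 0.0736). These are 2 of 18 sham groups examined for the 9 genes, and chance alone flags about 1 in 20. LCR sham 0441 was also the lowest array of its group for Sod2 (566), Sod3 (984) and Prdx6 (2933). The smoke groups of 12 were not examined in this way, and no interaction passed.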

How the results depend on the processing

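Of the 45 results (9 genes in 5 comparisons), 14 were called, and 11 of them kept their call and direction under all 13 alternatives and with each of the 38 arrays left out in turn. The others were the rise of Gpx1 in HCR, the fall of Gpx3 in LCR and the lower Cat level of LCR sham, with values beside each result. No call changed direction. The number of genes called lower after smoke in LCR was 1 with median-centred arrays, in place of 2. The number called lower in LCR under sham was 1, in place of 2, with the groups compared alone, with array weights and without the 6 arrays with most muscle RNA, and 1 to 2 with 1 array left out. The number called higher in LCR under smoke, 0 in the reported fit, was 1 with the groups compared alone or without the 6 arrays, 2 with array weights, and 0 to 1 with 1 array left out. The number of positive interactions called, also 0, was 2 with array weights, 1 without the 6 arrays and 0 to 1 with 1 array left out. Counts of calls over all genes or probe sets tested, the background of each comparison, moved by more than 1.5 times in at least 1 direction in every comparison. Over the reported fit and the 13 alternatives the genes called higher and lower ran from 1347 to 3804 and 1610 to 4317 after smoke in HCR, from 2122 to 5452 and 2866 to 4237 after smoke in LCR, from 83 to 371 and 150 to 647 between lines under sham, from 199 to 1934 and 167 to 926 under smoke, and from 41 to 1173 and 17 to 364 for the interaction. The lowest counts called higher after smoke, 1347 in HCR and 2122 in LCR, came with the minimum mean intensity of 50. That setting tested 9620 genes in place of 14217, so its counts are not on the same base. The interaction could not be fitted with the groups compared alone. The cause of these changes was not tested. The sham groups of 7 limit the line comparison under sham and the interaction. No paired analysis was possible because the array numbers are not shared between groups.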
